A study of Mus musculus with 60 samples.

Results

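The non-coding RNAs of mouse spleen were read from 4 tables of rRNA-depleted total RNA libraries, 1 each for long non-coding RNAs (lncRNAs), small nucleolar RNAs (snoRNAs), small nuclear RNAs (snRNAs) and transfer RNAs (tRNAs). Every named row of the 4 tables was taken: 10040 lncRNAs, 1482 snoRNAs, 1380 snRNAs and 5537 tRNAs, together 18439 of the 368645 named rows in the 25 tables of the series. The libraries came from whole spleen of male mice aged 4 months with the genotype label Ftsj1_DF (Ftsj1-deficient, 3 libraries) or WT (wildtype, 3 libraries). Per the labels, 4 of the mice were brothers and so were the other 2, both sets held both genotypes, all carried the same batch number, and no mouse was treated. The labels give neither the allele, the strain nor how the deficiency was made. The comparison asks which non-coding RNAs of the spleen differ in amount between the genotypes.

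The enzyme FTSJ1, encoded on the X chromosome, adds methyl groups to riboses near the anticodon of a set of tRNAs. snRNAs are the RNA parts of the spliceosome, snoRNAs guide methylation (C/D box) or pseudouridylation (H/ACA box) of ribosomal and spliceosomal RNA, and lncRNAs are a mixed class that includes nuclear scaffolds, imprinted transcripts and the spliced remnants of snoRNA and microRNA host genes. The spleen is a blood filter and a lymphoid organ, so its RNA comes from B and T cells, plasma cells, macrophages, red cell precursors and stroma. The tables count RNA and do not measure methylation.

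All 4 tables hold the authors' DESeq2 comparison: a mean level (mean of counts divided by library size factors over the 6 libraries), a log2 fold change signed as Ftsj1_DF minus WT, its standard error (SE), and p-values with and without Benjamini-Hochberg adjustment. Below, "x ± y" on the log2 scale is such a fold change with its SE from 3 libraries against 3, as the authors' deposited table gives it. Whole reads of single libraries are not among the columns but could be recovered from the size of 1 read in each library. A single solution matched the deposited mean level and fold change for every feature with a mean level of 10 to 100. The same held for the features below that are given with reads. Libraries are numbered 1 to 3 within a genotype by falling size factor in that table, and which mouse a number stands for is not known. Size factors ran from 0.636 to 1.80 over the 4 tables, with WT library 1 the deepest in each. The 4 summed mean levels were 13683195 normalised counts for lncRNAs, 710952 for snoRNAs, 717453 for snRNAs and 1305264 for tRNAs. In the poly-A libraries of the same spleens, Ftsj1 stood at -3.48 ± 0.18 in the authors' deposited table with an adjusted DESeq2 p of 4.28e-79, lower in the libraries labelled as deficient. In such bulk tissue a lower level can come from fewer cells of a type or from less RNA per cell, which cannot be told apart.

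No non-coding RNA of the spleen passed an adjusted p of 0.05 in any of the 4 deposited tables. The called share was 0% of 9069 tested lncRNAs, 0% of 733 snoRNAs, 0% of 921 snRNAs and 0% of 4166 tRNAs, and the remaining 971, 749, 459 and 1371 named rows were listed at 0. At an unadjusted DESeq2 p under 0.05 stood 245 lncRNAs (2.7% of those tested: 88 or 0.97% higher and 157 or 1.73% lower in Ftsj1_DF), 4 snoRNAs (0.546%, all lower), 12 snRNAs (1.3%: 4 or 0.434% higher and 8 or 0.869% lower) and 45 tRNAs (1.08%: 25 or 0.6% higher and 20 or 0.48% lower). The smallest adjusted p was 0.226 among lncRNAs, 0.999 among snoRNAs, 0.997 among snRNAs and 0.999 among tRNAs. The median log2 fold change over features with a level of 10 or more was 0.010, -0.0038, -0.013 and 0.021 in the same order of tables.

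Among features whose reads were recovered at a level of 10 to 100, the 3 Ftsj1_DF libraries lay wholly above the 3 WT libraries for 99 lncRNAs and wholly below them for 154, together 10.5% of 2414. The same held for 6 and 9 snoRNAs (6.33% of 237), 13 and 12 snRNAs (8.39% of 298) and 57 and 63 tRNAs (8.73% of 1374). Features named below for a small p tend to show no overlap because of that choice, so it is no further evidence for them. The precision differed by level. In the band of 100 to 1000, the 95% interval (1.96 SE to either side) stayed within 1 log2 unit of 0 for 94.6% of lncRNAs, 93.7% of snoRNAs, 82.0% of snRNAs and 96.8% of tRNAs. In the band of 10 to 100 this was so for 28.0%, 24.1%, 15.8% and 20.2%, where the median half-width of the interval was a 1.92-, 1.93-, 2.04- and 2.04-fold change.

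**Figure D1:**
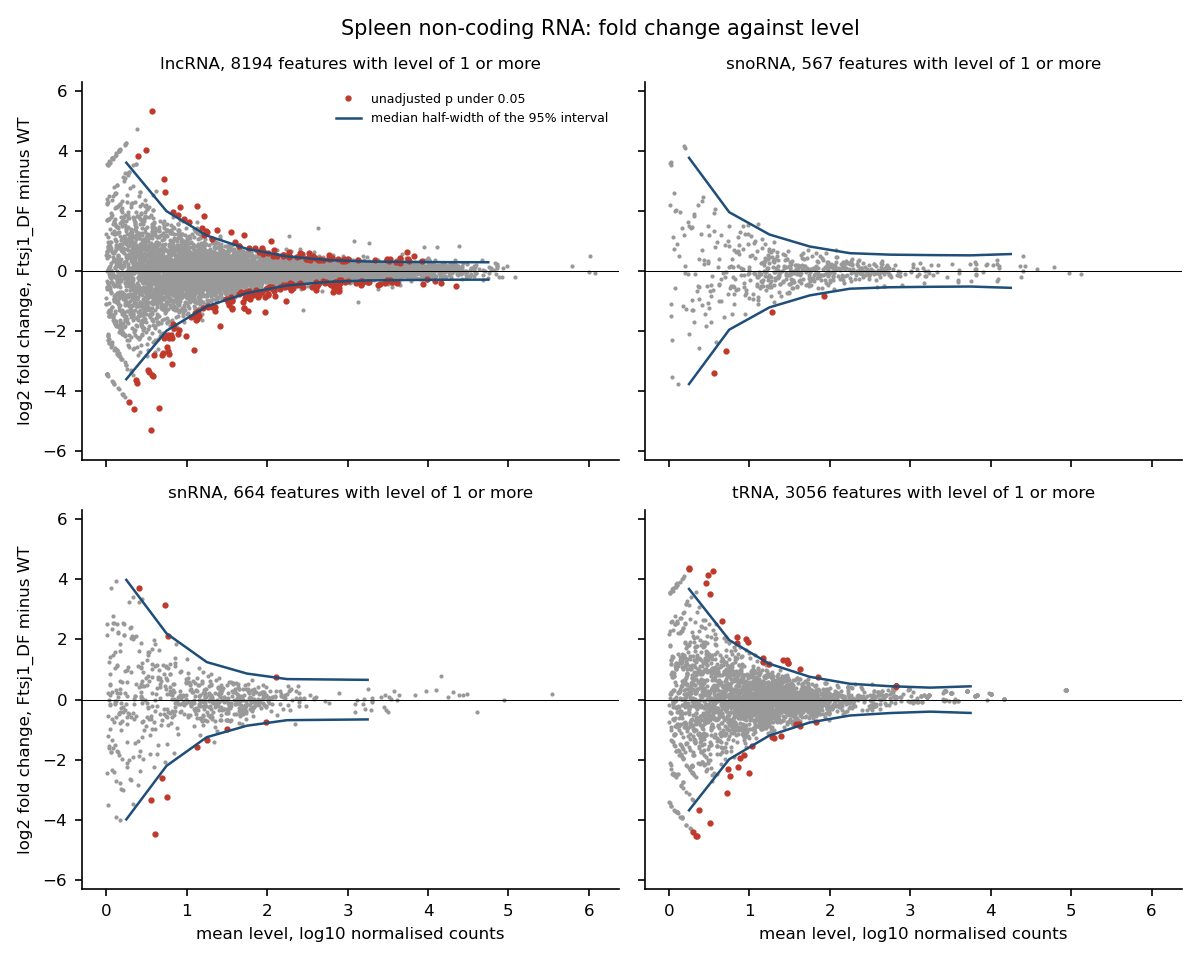
Log2 fold change (Ftsj1_DF minus WT, vertical axis) against log10 of the mean level (normalised counts, horizontal axis) for features with a level of 1 or more in each of the 4 spleen tables. Each point is a feature, red points have an unadjusted p under 0.05, and the lines give the median half-width of the 95% interval by level; the cloud narrows from left to right, and the 245 lncRNAs in red lie on its edges.

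Sequences are shown for the features the results below turn on, 5′ to 3′ in the sense of the transcript, from the GENCODE M21 transcripts of GRCm38, an earlier build than the GRCm39 that the submitters' processing notes name. Rnu1a1 is the U1 snRNA, which pairs with the 5′ splice site of introns. Gm22513 and Gm23238, the snRNAs with the highest and the ninth highest mean level, are printed with capitals where they differ from Rnu1a1. Gm22317, the snRNA with the smallest p at a level of 10 or more, has exactly the letters of Rnu1a1.
Rnu1a1: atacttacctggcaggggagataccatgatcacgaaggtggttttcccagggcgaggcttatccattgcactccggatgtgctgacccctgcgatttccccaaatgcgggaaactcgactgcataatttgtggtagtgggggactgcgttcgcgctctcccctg
Gm22513: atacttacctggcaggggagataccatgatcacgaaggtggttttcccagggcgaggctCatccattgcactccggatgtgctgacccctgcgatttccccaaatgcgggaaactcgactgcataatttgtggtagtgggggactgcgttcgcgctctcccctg
Gm23238: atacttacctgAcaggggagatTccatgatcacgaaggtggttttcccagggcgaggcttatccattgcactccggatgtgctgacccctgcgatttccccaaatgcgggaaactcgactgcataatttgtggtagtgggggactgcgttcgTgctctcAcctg
Counted from 1 at the 5′ end with the base of Rnu1a1 first, Gm22513 differs from it by T60C, and Gm23238 by G12A, A23T, C153T and C160A. The second highest snRNA is shown beside its near copy Gm24407, with the differing bases in capitals (A88G and A99C, the base of Gm24407 first).
Gm24265: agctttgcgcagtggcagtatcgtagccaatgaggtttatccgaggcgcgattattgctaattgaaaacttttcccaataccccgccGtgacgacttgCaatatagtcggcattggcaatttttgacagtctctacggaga
Gm24407: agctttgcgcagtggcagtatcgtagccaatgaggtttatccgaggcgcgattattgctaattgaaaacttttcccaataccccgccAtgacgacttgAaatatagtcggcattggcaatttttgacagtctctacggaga
For snoRNAs with a level of 10 or more, Gm22488 had the smallest p, Gm22988 the highest level, Gm24299 was also among the 5 smallest p, and Snord17 had the second highest level. Capitals mark the ACA box near the 3′ end of the first pair and boxes C (TGATGA) and D (CTGA) in the other.
Gm22488: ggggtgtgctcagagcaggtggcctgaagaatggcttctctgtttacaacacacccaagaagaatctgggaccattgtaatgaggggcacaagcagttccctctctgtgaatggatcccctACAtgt
Gm22988: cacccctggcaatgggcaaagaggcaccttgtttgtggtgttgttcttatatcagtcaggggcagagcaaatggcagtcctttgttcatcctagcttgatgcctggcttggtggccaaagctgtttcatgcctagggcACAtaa
Gm24299: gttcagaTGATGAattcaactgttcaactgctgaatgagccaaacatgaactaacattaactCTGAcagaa
Snord17: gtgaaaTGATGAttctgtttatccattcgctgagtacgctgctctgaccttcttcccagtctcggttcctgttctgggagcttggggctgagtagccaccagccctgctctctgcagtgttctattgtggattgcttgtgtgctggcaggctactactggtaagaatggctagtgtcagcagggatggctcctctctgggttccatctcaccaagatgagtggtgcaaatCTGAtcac
Gm22146, a transcript of the lncRNA table, had the second smallest p there at a level of 10 or more and a different direction in liver.
Gm22146: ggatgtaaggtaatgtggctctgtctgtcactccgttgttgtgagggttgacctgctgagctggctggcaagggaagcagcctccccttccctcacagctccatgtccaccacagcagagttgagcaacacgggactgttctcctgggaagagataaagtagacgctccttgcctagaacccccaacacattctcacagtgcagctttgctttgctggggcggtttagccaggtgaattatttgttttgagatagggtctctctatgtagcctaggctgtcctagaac

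The lncRNAs with the smallest p at a level of 10 or more were Gm6961, Gm22146, Gm50386 and Gm32743, all lower in Ftsj1_DF, and Mirt2, which was higher, and none of the 5 passed the adjusted threshold. Gm6961, a predicted gene, had 36, 34 and 27 reads in the Ftsj1_DF libraries and 108, 78 and 69 in the WT libraries. After division by the size factors this was 32.8 ± 5.58 against 82.0 ± 12.3 (SD, n = 3), and the genotypes did not overlap. Its log2 fold change in the authors' deposited table was -1.33 ± 0.34, with an adjusted DESeq2 p of 0.226.

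Gm22146 had 638, 480 and 401 reads in Ftsj1_DF and 1338, 623 and 706 in WT. Its normalised values of 510, 429 and 582 all lay below the WT values of 853, 745 and 856, with a log2 fold change of -0.69 ± 0.18 and an adjusted DESeq2 p of 0.226 in the authors' deposited table. In GENCODE it lies within the span of Fkbp5 on the opposite strand, so its reads and those of Fkbp5 can be told apart only where counting used the strand. In the other organs the authors' deposited tables give -0.37 ± 0.36 in brain, -1.27 ± 0.32 in heart, -0.33 ± 0.24 in kidney and 1.51 ± 0.35 in liver.

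Gm50386 had a mean level of 786 and a log2 fold change of -0.66 ± 0.17 in the authors' deposited table (adjusted DESeq2 p of 0.226); its reads could not be recovered in the rRNA-depleted libraries. In the poly-A libraries it had 236, 98 and 159 reads in Ftsj1_DF and 143, 163 and 168 in WT, with a deposited log2 fold change of -0.59 ± 0.33. There the genotypes overlapped after division by the size factors.

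Gm32743 had 117, 163 and 73 reads in Ftsj1_DF and 425, 177 and 166 in WT, which gave 115 ± 27.2 against 228 ± 37.6 normalised reads (SD, n = 3) with no overlap. The authors' deposited table gives it -0.99 ± 0.25 and an adjusted DESeq2 p of 0.226. In GENCODE, Gm32743 and 4932413F04Rik both lie within the span of Tmem108 on the other strand. These 2 neighbours were looked at after the value of Gm32743 was seen. 4932413F04Rik had 86, 88 and 52 reads against 207, 100 and 114, again without overlap, and -0.81 ± 0.25 in the authors' deposited table with an unadjusted DESeq2 p of 0.0013. Tmem108, which codes for a transmembrane protein, stood at -0.76 ± 0.23 in the deposited poly-A table, with an adjusted DESeq2 p of 0.243. Whether reads of Tmem108 entered the counts of its antisense neighbours was not tested.

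Mirt2, a lncRNA known in mouse for its induction by bacterial lipopolysaccharide, was the only one of the 5 with the higher values in Ftsj1_DF. It had 223, 147 and 94 reads in Ftsj1_DF and 109, 74 and 56 in WT, that is 149 ± 25.8 against 75.3 ± 11.5 normalised reads (SD, n = 3) without overlap. The authors' deposited table gives 0.99 ± 0.27 and an adjusted DESeq2 p of 0.371. The poly-A libraries of the same spleens had 47, 38 and 38 Mirt2 reads in Ftsj1_DF and 4, 13 and 4 in WT, with 1.93 ± 0.67 and an adjusted DESeq2 p of 0.395 in the deposited poly-A table. Both kinds of library thus ordered the genotypes the same way for Mirt2, though they share the mice. In the poly-A libraries all 5 neutrophil markers had positive log2 fold changes in the deposited table, from 0.60 to 1.55. Among them were S100a8 (1.50 ± 0.48) and S100a9 (1.55 ± 0.45), calcium-binding proteins of neutrophils. Red cell markers were also higher in the deposited table, with 5 of 5 tested positive from 0.75 to 0.91, while 4 of 5 tested B cell markers were negative, among them Cr2 (-0.43 ± 0.13) and Pax5 (-0.38 ± 0.12). Red pulp macrophage markers (5 of 5 positive, median 0.34), plasma cell markers (4 of 4, median 0.33) and T cell markers (4 of 5, median 0.08) were mostly positive in the deposited table. Ms4a1, Alas2, Mzb1 and Ccl21a, markers of B cells, red cell precursors, plasma cells and stroma, were listed at 0, and the other markers of these types were present. Why these 4 were at 0 was not tested, so the value does not show that their RNA was absent. None of these markers passed an adjusted p of 0.05, and their part in the value of Mirt2 was not tested.

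**Figure D2:**
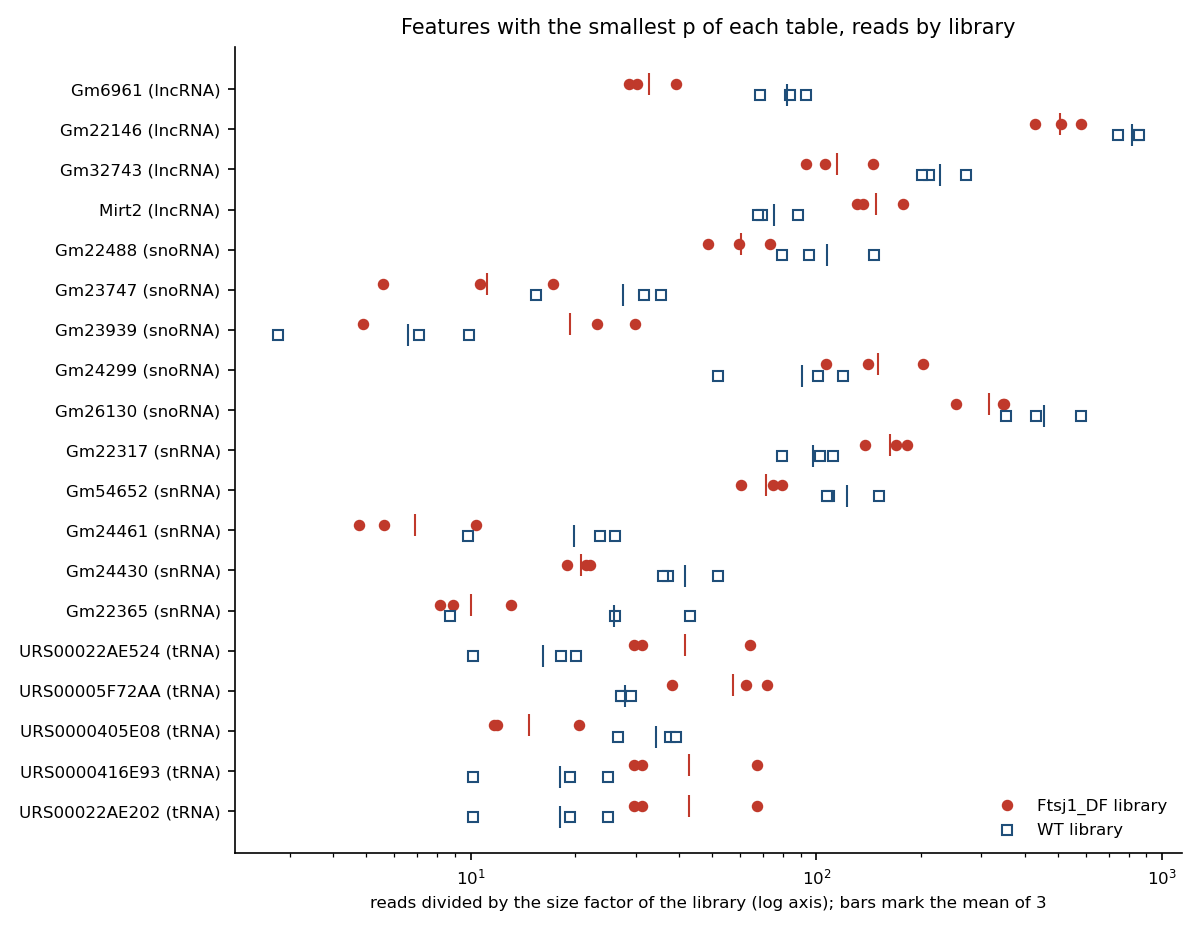
Reads divided by the size factor of the library (horizontal log axis) for the features with the smallest p at a level of 10 or more in each spleen table whose reads were recovered. Filled circles are the 3 Ftsj1_DF libraries, open squares the 3 WT libraries and short bars the mean of 3; Gm6961, Gm22146, Gm32743 and Mirt2 show no overlap between the genotypes, while Gm23747, Gm23939, Gm24299, Gm24461 and Gm22365 do.

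The highest lncRNA counts belonged to Malat1, a nuclear RNA of splicing speckles, with 8.68% of the summed level of the table, followed by Gm30211 with 7.50%, Gm56298 with 7.40% and Rmrp, the RNA part of a ribonuclease that cuts ribosomal precursor RNA, with 4.48%. These are counts not divided by length, so they do not order the molecules by abundance. Malat1 stood at -0.08 ± 0.17 and Rmrp at 0.18 ± 0.22 in the authors' deposited table. Malat1 in the deposited poly-A table stood at -0.66 ± 0.16, and the difference between the 2 kinds of library had an unadjusted p of 0.0129 and did not pass adjustment.

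Several of these lncRNAs were a far larger part of the spleen table than of the other organs' tables. Gm30211, whose span in GENCODE holds Igkc, the constant region of the immunoglobulin kappa light chain, took 7.50% in spleen against 0.00107% in brain, 0.0375% in heart, 0.0376% in kidney and 0.0151% in liver. Reads of both genes lie on the same strand there and cannot be told apart where they overlap. Its log2 fold change was 0.48 ± 0.53 in the authors' deposited table. Gm31243 (0.884% of the spleen table), 2010309G21Rik (0.705%), 4930526L06Rik (0.624%) and Gm26740 (0.558%) likewise took at most 0.0228% elsewhere. 4930526L06Rik lies among the Ms4a genes, a cluster that includes the B cell gene Ms4a1. The authors' deposited table gives them log2 fold changes of -0.20 ± 0.16, 0.17 ± 0.16, 0.09 ± 0.13 and -0.20 ± 0.17. Lncpint, by contrast, took 0.617% in spleen and between 0.306% and 0.423% in the other organs. The shares are descriptions of mean levels, for which no spread between libraries could be had.

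Gm56298 showed a spread between libraries unlike its neighbours in level, with -0.04 ± 1.95 in the authors' deposited table. Of 1422 lncRNAs with a level of 1000 or more, 7 had an SE of 1 or more: Gm56298, 1810028F09Rik, 1810018F18Rik, Gm5441, Gm13381, Gm45774 and Gm20629. The deposited poly-A table of the spleen showed the same kind of spread for the 6 exocrine pancreas markers (digestive enzymes such as Pnlip and Cela1), all of them present, with log2 fold changes from 0.24 to 0.48 and SEs from 2.07 to 2.41 and 3.24% of the summed level. The part of pancreatic RNA in the values of these lncRNAs was not tested.

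**Figure D3:**
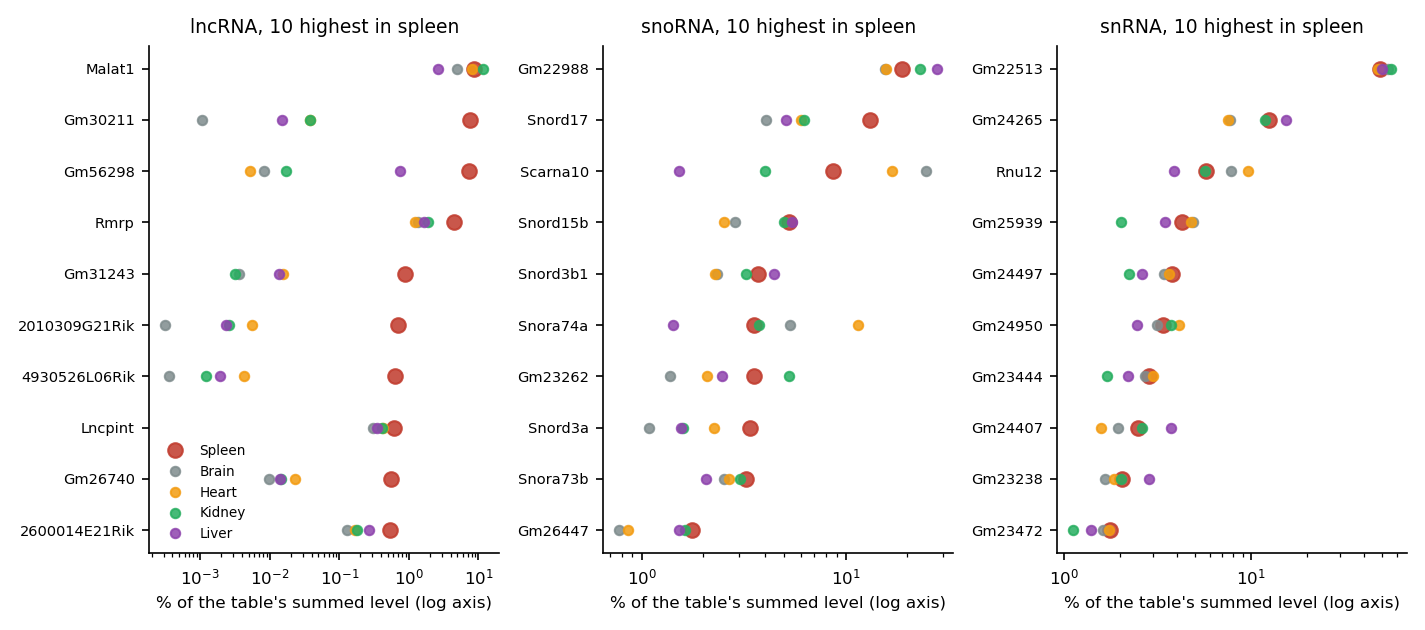
Share of the summed mean level of each organ's table (percent, horizontal log axis) for the 10 lncRNAs, snoRNAs and snRNAs with the highest level in spleen. Large red points are spleen and small points the other 4 organs; Gm30211 takes 7.50% in spleen and at most 0.0376% elsewhere, while Gm22513 takes 48.7% in spleen and a similar share in every organ.

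The lncRNAs with known roles were looked at as lists, and none had a called member. The 26 nuclear and imprinted lncRNAs had a median of -0.059 in the authors' deposited table, against 0.0028 over all tested lncRNAs, with 12 positive and 14 negative. Among them, Rian and Meg3, maternally expressed RNAs of one imprinted cluster, stood at -0.36 ± 0.18 (unadjusted DESeq2 p of 0.0398) and -0.32 ± 0.24 in the deposited table. Mirg, a further RNA of that cluster, was on the other side of 0, at 0.24 ± 0.38 in the deposited table. H19, an imprinted RNA of growing tissue, stood at 1.15 ± 0.72 there. Neat1, the scaffold of paraspeckles, was at -0.08 ± 0.17, Kcnq1ot1 at -0.17 ± 0.14 and Airn at -0.20 ± 0.14 in the deposited table, the last 2 being RNAs that silence imprinted neighbours.

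The 19 small nucleolar RNA host genes had a deposited median of 0.068, with members between -0.07 and 0.27; Gas5, the host of several C/D box snoRNAs, was at -0.02 ± 0.14 and Snhg1 at 0.27 ± 0.30. The 17 microRNA host genes had a deposited median of -0.011, with Mir155hg, which is induced in activated lymphocytes, at 0.15 ± 0.16 and Mir17hg at 0.00 ± 0.13. The 21 lncRNAs studied in immune cells had a deposited median of -0.016, and the highest value after Mirt2 at a level of 10 or more was that of AW112010, an RNA of activated immune cells, at 0.36 ± 0.20. Of the 3 RNA components of ribonucleoproteins, Terc, the template of telomerase, stood at 0.14 ± 0.20 in the deposited table. Bc1, an RNA known from neurons, had 399, 315 and 126 reads in Ftsj1_DF and 902, 117 and 207 in WT, and the genotypes overlapped. Of the 7386 predicted Gm genes 6517 were tested, and 52 were higher and 123 lower at an unadjusted DESeq2 p under 0.05. Of the 2021 Rik clone names 1941 were tested, and 32 were higher and 21 lower by the same measure. Over all 9069 tested lncRNAs it was 88 higher and 157 lower. The deposited median was -0.0080 for the Gm genes and 0.021 for the Rik clone names.

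Among snoRNAs, Gm22488, whose letters end in an ACA box, had the smallest p at a level of 10 or more. It had 105, 50 and 38 reads in Ftsj1_DF and 171, 133 and 56 in WT, that is 60.5 ± 12.5 against 107 ± 35.0 normalised reads (SD, n = 3), and the genotypes did not overlap. Its deposited log2 fold change was -0.82 ± 0.36, with an adjusted DESeq2 p of 0.999. Gm23747 had 8, 11 and 11 reads against 57, 14 and 25, and after division by the size factors 1 library of each genotype crossed. Gm24299, with boxes C and D, had 202, 110 and 129 reads against 215, 47 and 71, which overlapped, and Gm23939 had 7, 24 and 19 against 5, 9 and 5. Gm26130 had 497, 360 and 161 reads in Ftsj1_DF and 776, 529 and 248 in WT and did not overlap, with a deposited log2 fold change of -0.52 ± 0.28.

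The C/D box snoRNAs named Snord had 106 listed members, of which 89 were tested, 0 were called and 53 of 87 at a level of 10 or more were positive, with a deposited median of 0.074 against -0.013 over all snoRNAs tested. The H/ACA box snoRNAs named Snora had 39 of 40 members tested, 0 called, 26 negative and 13 positive, and a deposited median of -0.039. In the sequences matched to GENCODE, an ACA box stood in 32 of 39 Snora genes and 0 of 80 Snord genes, and boxes C and D stood in 50 of 80 Snord and 0 of 39 Snora genes. Of 536 predicted Gm snoRNAs, 151 (28.2%) held an ACA box and 53 (9.89%) boxes C and D. The deposited median of those at a level of 10 or more was -0.052 for the 99 with an ACA box and 0.14 for the 40 with boxes C and D. These medians carry no test.

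The highest snoRNA counts were those of Gm22988 (18.8% of the summed level), Snord17 (13.2%) and Scarna10 (8.65%), a scaRNA of Cajal bodies, and the 10 highest together took 65.1%. In the authors' deposited table Gm22988 stood at -0.09 ± 0.33, Snord17 at -0.08 ± 0.24 and Scarna10 at 0.12 ± 0.23. Snord17 took 13.2% in spleen and between 4.08% and 6.26% in the other organs, whereas Scarna10 ranged from 1.53% in liver to 24.7% in brain. The snoRNAs that guide cleavage of ribosomal precursor RNA had 10 members, 5 positive and 5 negative, and a deposited median of 0.058. Snord3a, a U3 gene, stood at -0.20 ± 0.27, Snora73b, a U17 gene, at 0.15 ± 0.29 and Snord118, the U8 gene, at -0.02 ± 0.27 in the deposited table. Further U3 names were not in that list. Of these, Snord3b1, Snord3b2, Snord3b3 and Snord3b4 stood at 0.18 ± 0.26, 0.18 ± 0.27, 0.23 ± 0.26 and 0.06 ± 0.29. Snord3b-ps1 and Snord3b-ps2 stood at -0.51 ± 0.28 and -0.31 ± 0.56. The imprinted Snord115 and Snord116 arrays, which are known from neurons, had 17 listed members, all at 0. The 2 snoRNAs from the Gas5 introns with positive values and the 1 with a negative value ranged from -0.15 to 0.22.

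The snRNAs were concentrated in few rows, and the 10 highest took 87.3% of the summed level. Gm22513 alone took 48.7% and stood at 0.18 ± 0.34 in the authors' deposited table. It is 99.4% identical to Rnu1a1, with the single substitution given beside its sequence. The 32 tested snRNAs with an identity of 90% or more to Rnu1a1 or another named U1 gene took 55.5% of the level. The 29 of them at a level of 10 or more had a deposited median of 0.21. Of the 32, 1 had an unadjusted DESeq2 p under 0.05. That member was Gm22317, with 268, 148 and 115 reads in Ftsj1_DF and 143, 102 and 69 in WT, or 164 ± 22.7 against 97.8 ± 16.5 normalised reads (SD, n = 3), without overlap. The deposited table gives it 0.75 ± 0.32, an unadjusted DESeq2 p of 0.0198 and an adjusted one of 0.997. Gm23238 stood at 0.78 ± 0.40 there, at a level of 14623.

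Several rows shared one sequence. The letters of Gm22317 are those of Rnu1a1 and of 3 further snRNAs, and the deposited log2 fold changes of the 5 copies were 0.75 ± 0.32 for Gm22317, 0.55 ± 0.45 for Gm26444, 0.23 ± 0.33 for Gm22068, 0.07 ± 0.40 for Gm25679 and -0.14 ± 0.36 for Rnu1a1. Their mean levels were 131, 37.3, 249.9, 156 and 1576. The labels do not say how reads that fit several copies were assigned, so a value of 1 copy is uncertain. The differences between copies were not tested. In all, 92 of the 804 tested snRNAs with a matched sequence shared it with another.

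The other spliceosomal families gave smaller counts. The 14 snRNAs of at least 90% identity to Rnu2-10 (U2, which pairs with the branch point) took 18.3% of the level. The 13 of them at a level of 10 or more had a deposited median of 0.15. Among these was Gm24950, which has the letters of Rnu2-10, at 0.15 ± 0.31. Gm24265 took 12.4% and stood at -0.01 ± 0.34, and its near copy Gm24407 at 0.08 ± 0.33 in the deposited table. The 256 snRNAs near Rnu6 (U6, part of the catalytic core) took 1.14%, and the 107 of them at a level of 10 or more had a deposited median of 0.061. Rnu5g, a U5 gene, stood at -0.26 ± 0.39 there. The minor spliceosome removes a small class of introns, and its 3 named members were all negative in the deposited table, with Rnu12 at -0.41 ± 0.31, Rnu11 at -0.40 ± 0.34 and Rnu4atac at -0.08 ± 0.35. No member of it was called.

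The other 4 snRNAs among the 5 of smallest p at a level of 10 or more were lower in Ftsj1_DF. Gm54652 had 110, 85 and 41 reads against 195, 98 and 102, and Gm24430, 82.2% identical to Rnu6, had 28, 23 and 15 against 67, 33 and 35, and neither pair of groups overlapped. Gm24461 had 7, 6 and 7 reads against 47, 9 and 16, and Gm22365 had 12, 14 and 6 against 47, 8 and 29, and both overlapped. In the authors' deposited table these 4 stood at -0.76 ± 0.34, -0.99 ± 0.48, -1.59 ± 0.74 and -1.36 ± 0.69, with adjusted DESeq2 p of 0.997 for each.

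**Figure D4:**
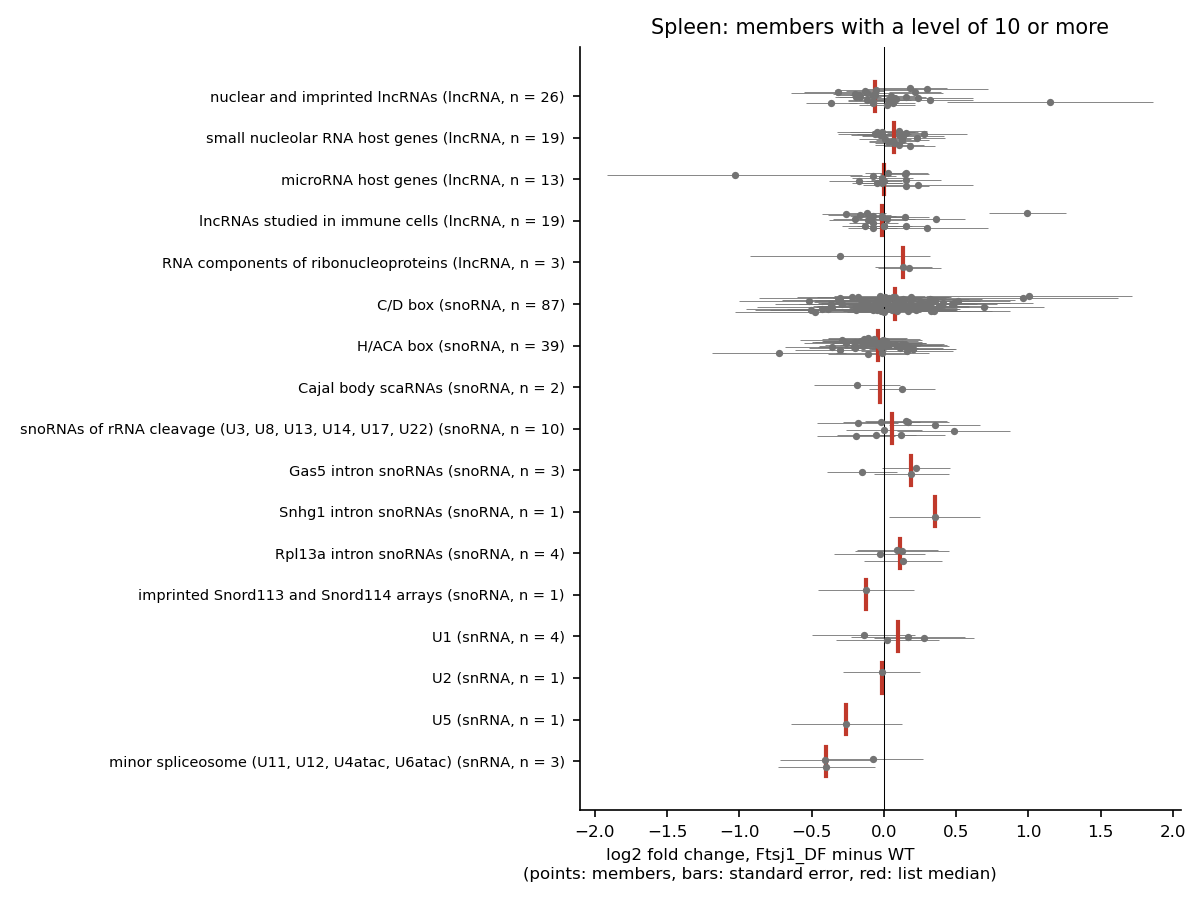
Log2 fold changes (Ftsj1_DF minus WT, horizontal axis) of the members of each list with a level of 10 or more. Grey points are members, thin bars 1 SE and red marks the median of the list; the medians lie between -0.40 and 0.35, the lower end being the minor spliceosome with 3 members and the upper end the single Snhg1 intron snoRNA.

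The tRNA table uses RNAcentral identifiers without names, and amino acids could not be assigned. Of 4166 tested identifiers, 1230 shared every value with at least 1 other, which left 3161 distinct sets of values, the largest held by 81 identifiers. Counts were concentrated as well: the 10 highest identifiers took 60.5% of the summed level, and the first 9 had near-equal levels between 83349 and 87391 with the tenth at 14655. Those 9 stood between 0.31 and 0.32 with an SE of 0.19 in the authors' deposited table and cannot be taken as 9 measurements.

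Most tRNA identifiers of high level had positive fold changes. Of 104 identifiers with a level of 1000 or more, which make up 58 sets of values, 84 were positive in the deposited table with a median of 0.17, and 0 had an unadjusted DESeq2 p under 0.05. The 1374 identifiers with a level of 10 to 100 had a deposited median of -0.025, with 659 positive. Identifiers that share reads are not independent, and the difference between the bands was not tested.

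The tRNA identifiers with the smallest p at a level of 10 or more had levels under 100. URS00022AE524 had 38, 35 and 44 reads in Ftsj1_DF and 32, 17 and 8 in WT, or 41.8 ± 19.6 against 16.2 ± 5.32 normalised reads (SD, n = 3), without overlap. Its deposited log2 fold change was 1.33 ± 0.51 with an adjusted DESeq2 p of 0.999. URS00005F72AA had 76, 45 and 49 reads against 48, 23 and 23, and URS0000416E93 and URS00022AE202 shared 38, 35 and 46 against 34, 21 and 8. URS0000405E08 went the other way, with 25, 14 and 8 reads against 66, 33 and 21. For each of these, the genotypes did not overlap after division by the size factors. Over all 1374 tRNA identifiers with a level of 10 to 100 the share without overlap was 8.73%. These identifiers were picked by small p, so the lack of overlap is no further evidence.

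The spleen was then set against the other organs of the same mice, from the difference between the deposited log2 fold changes divided by its standard error (a normal test, two-sided) over features with a level of 10 or more in both, adjusted by Benjamini-Hochberg. The organs share mice, so the errors may be correlated, which the test does not take in. Against kidney 2 of 5488 lncRNAs (0.0364%) differed and against liver 8 of 4315 (0.185%); against brain (5553) and heart (5367) it was 0%. For snoRNAs, snRNAs and tRNAs 0% differed in every organ. The authors' own lncRNA calls were 0 of 9069 tested in spleen, 1 of 9249 in brain and 40 of 8990 in heart. They were 15 of 9100 in kidney and 37 of 8606 in liver. For tRNA identifiers they were 21 of 3911 in heart, 28 of 3359 in liver and 0 of 4166 in spleen. Brain and kidney had 0 of 4398 and 0 of 4153 tRNA identifiers called. Identifiers that share reads are not separate results.

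In 9 of the 10 differing lncRNAs the deposited fold change of the other organ was far from 0 and that of the spleen was within 1.96 SE of 0. Gm49692 stood at 0.25 ± 0.21 in spleen and -2.04 ± 0.22 in kidney, a difference of 2.29 with an adjusted p of the difference of 6.81e-10. Gm12718 stood at -0.22 ± 0.28 in spleen and -3.15 ± 0.38 in liver, a difference of 2.93 with an adjusted p of the difference of 2.57e-06. Gm22146 was the exception, with -0.69 ± 0.18 in spleen and 1.51 ± 0.35 in liver, opposite in sign, a difference of -2.20 with an adjusted p of the difference of 3.59e-05.

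**Figure D5:**
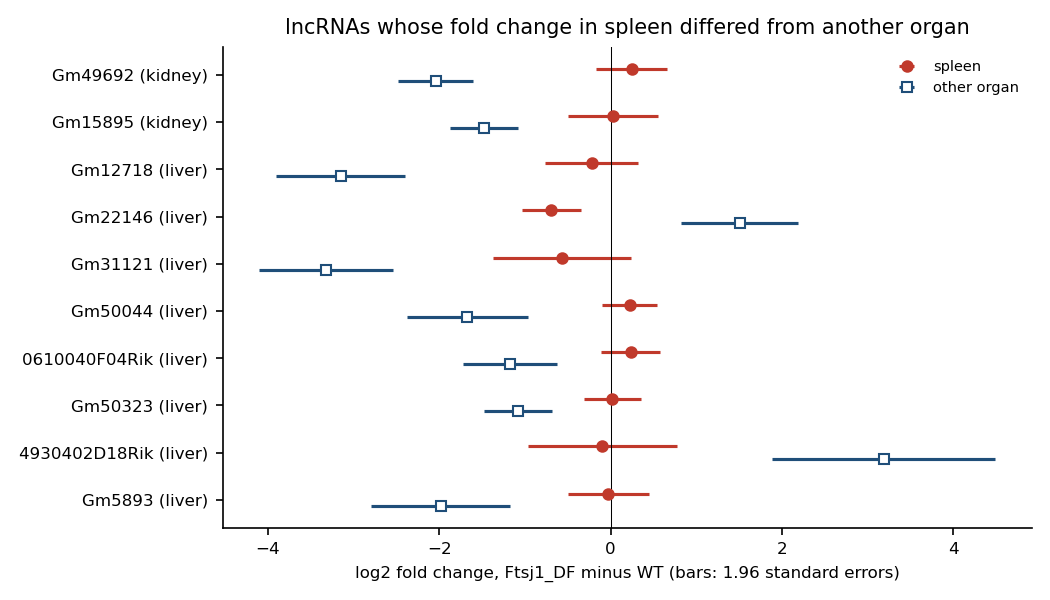
Log2 fold changes (Ftsj1_DF minus WT, horizontal axis) of the 10 lncRNAs whose spleen value differed from that of another organ, named in brackets. Filled circles are spleen, open squares the other organ and bars 1.96 SE; Gm22146 has its spleen value of -0.69 and its liver value of 1.51 on opposite sides of 0.

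Poly-A libraries of the same spleens gave a second measure of 2459 lncRNAs with a level of 10 or more in both tables. The log2 fold changes of the 2 kinds of library differed for 0% of them by an adjusted p of the difference, and for 79 by an unadjusted p under 0.05. The deposited poly-A table called 17 genes, of which 2 were in the lncRNA table. Gm29461 stood at -1.53 ± 0.35 in the deposited poly-A table (adjusted DESeq2 p of 0.0261) and -0.62 ± 0.30 in the rRNA-depleted one, and Gm49742 at -1.09 ± 0.26 (adjusted DESeq2 p of 0.0361) and -0.33 ± 0.22.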

How the data were processed

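The deposited tables hold the authors' DESeq2 comparison for whole spleen of 3 Ftsj1_DF and 3 WT mice, per the file headers. Per the submitters' processing notes, the authors used DESeq2 and featureCounts (Subread 2.0.3) with GRCm39. Strand use, alignment settings and the treatment of reads with several places are not stated in the labels. Libraries were stranded total RNA from phenol extraction, per the labels' protocols. The signal column deposited by the authors is the mean over 6 libraries of counts that the authors divided by DESeq2's size factors, per the file headers. The fold changes were deposited by the authors on the log2 scale with their SE. The deposited test score is the Wald statistic, and the deposited p-value columns are raw and Benjamini-Hochberg adjusted. A call is an adjusted p under 0.05. Each table was normalised on its own, so levels are compared only within a table.

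A feature with 1 read in 1 library has a mean level that gives that library's size factor. Mean levels of other features were solved for whole reads, kept only where the deposited fold change was matched to within 5e-05. At a level of 100 or more a closer match was asked for. This recovered 150 of 150 simulated features per table. Every simulated level was below the middle of the range of 10 to 100, with 1 fixed dispersion. Recovery at higher levels, as for Gm22146, Gm26130, Bc1, Gm32743 and Mirt2, was not simulated. No count model was run on the recovered reads. As an alternative chosen after seeing the data, limma 3.58.1 in R 4.3.3 was run on log2 of normalised reads plus 0.5, for levels of 10 to 100. On simulated data it recovered 82% of 4-fold changes in lncRNAs, 87.2% in snoRNAs, 69.4% in snRNAs and 94% in tRNAs, and 13%, 32.5%, 18% and 26% of 2-fold changes. Python 3.11.15 was used for all else.

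Named features were the called ones, or the 5 smallest p at a level of 10 or more where fewer than 3 were called; the 10 highest levels; the 3 highest of each list; and up to 5 per direction that differed from another organ. 4932413F04Rik, Tmem108, Gm22068, Gm25679, Gm26444, Gm55831, Gm29461, Gm49742, Gm15895, Gm50323, Gm5893, H19, Rian, AW112010 and the lncRNAs of large SE were named after their values were seen. Meg3, Mirg, Snord3b2, Snord3b3, Snord3b4, Snord3b-ps1 and Snord3b-ps2 were also named after their values were seen. The features and lists were chosen with earlier results of these data known. Lists of U4 and 7SK were matched by gene name and had no named member, so a predicted Gm gene of either kind would not be counted in them. Sequences were matched by name to GENCODE M21 (GRCm38) for 804 of 921 tested snRNAs and 663 of 733 tested snoRNAs; tRNA sequences were not used here. The depth limits are those of the recovered size factors. A deposited or limma p-value tests the genotype difference against a spread estimated from at most 3 mice a genotype. The p of a difference between organs or kinds of library compares deposited fold changes of the same mice, whose errors may be correlated.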

Additional observations from a re-analysis of the deposited data

Results flagged for a closer look

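The lncRNAs listed here had a log2 fold change in spleen that differed from that in another organ of the same mice at an adjusted p of the difference under 0.05. The difference divided by its standard error was tested against a normal distribution. Values are from the authors' deposited tables, spleen first.

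Against kidney, Gm49692 differed by 2.29 (0.25 ± 0.21 and -2.04 ± 0.22) and Gm15895 by 1.50 (0.02 ± 0.27 and -1.48 ± 0.20, adjusted p of the difference of 0.0204).

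Against liver, Gm12718 differed by 2.93, and Gm22146 by -2.20, the latter with opposite signs in the 2 organs. Gm31121 differed by 2.75 (-0.57 ± 0.41 and -3.32 ± 0.40, adjusted p of the difference of 0.00174) and Gm50044 by 1.90 (0.22 ± 0.17 and -1.67 ± 0.36, adjusted p of the difference of 0.00174). 0610040F04Rik differed by 1.41 (0.23 ± 0.18 and -1.17 ± 0.28), and Gm50323 by 1.11 (0.02 ± 0.17 and -1.08 ± 0.20), both with an adjusted p of the difference of 0.0201. 4930402D18Rik differed by -3.29 (-0.10 ± 0.44 and 3.19 ± 0.66) and Gm5893 by 1.96 (-0.03 ± 0.24 and -1.98 ± 0.41), both with an adjusted p of the difference of 0.0230.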

How the results depend on the processing

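Of 331 alternative values, 2 gave a call where the main test gave 0 and 2 turned the sign of a log2 ratio, and 2 medians also changed sign; no other result with a test crossed its threshold. Adjustment over all features, over the 4 tables together or over levels of 10 or more, a threshold of 0.1, and limma on recovered reads of all 6 libraries each called 0 features in every table; unadjusted limma p under 0.05 were had by 108 lncRNAs, 6 snoRNAs, 5 snRNAs and 50 tRNAs. Leaving out 1 library in turn, the limma calls ranged from 0 to 1 for lower snRNAs and from 0 to 1 for higher tRNAs, and were 0 otherwise. The snRNA was Gm55831 without WT library 2 (adjusted limma p of 0.0214), and the tRNA URS00004D9E92 without WT library 3 (adjusted limma p of 0.00136). Gm55831 had 12, 20 and 6 reads in Ftsj1_DF and 86, 5 and 28 in WT, and URS00004D9E92 had 45, 43 and 25 against 16, 4 and 25, so the left-out library was the WT one nearest to the other genotype or past it. Of 24 features with recovered reads, 1 changed sign: the log2 ratio of 4930402D18Rik was 0.113 without WT library 1 and 0.147 without Ftsj1_DF library 3, in a range that began at -0.375, and the cause was not tested. Organ and poly-A differences at a level of 1 or more gave the same counts. With the level minimum, 2 of 28 medians changed sign, those of the microRNA host genes (-0.011 to 0.0013) and of the predicted Gm lncRNAs (-0.0080 to 0.00066), and the largest shift of any median was 0.914. No paired analysis was possible because the mouse behind each recovered library is not known. At levels of 100 or more, intervals within 1 log2 unit of 0 were least frequent for snRNAs.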

Other observations

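A pair of lncRNAs with moderate counts in 5 libraries had no read in WT library 1, the deepest of the 6; both were picked after their values were seen. Gm30008 had 30, 19 and 29 reads in the Ftsj1_DF libraries and 0, 22 and 27 in the WT libraries. Gm16136 had 18, 16 and 22 reads in Ftsj1_DF and 0, 23 and 30 in WT. Their deposited log2 fold changes were 0.50 ± 1.53 and -0.07 ± 1.55. Such a gap was rare: of 1954 lncRNAs with a level of 15 to 100, 6 had 0 reads in 1 or more libraries, against 1 of 1050 tRNA identifiers, 0 of 202 snoRNAs and 0 of 249 snRNAs in the same band. The cause was not tested.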
